A study of Mus musculus with 12 samples.

Results

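The Pax5 locus held 52 of the 107115 candidate regions whose methylation levels were deposited for a comparison of Dnmt1 mutant and wild-type mouse bone marrow progenitors. The 52 are every candidate region that overlaps the Pax5 gene span (chromosome 4, 44524748 to 44710694, mm10) or the 5 kb on either side, whether or not the authors listed it as hypomethylated. Pax5 was singled out because many regions of it are in that list, and the candidate regions come from metilene, a program that searches for regions that differ between groups, run on these same samples. The differences between genotypes below are therefore a description of the locus, without a test of it.

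The groups were lineage-negative (lin-) bone marrow progenitors of BALB/c mice, wild type (labelled wt) or mutant in Dnmt1 (labelled dnmt1-/-). Lineage-negative cells are marrow cells depleted of those with surface markers of mature blood lineages. The labels write the genotype as a null allele, whereas the series describes a specific mouse mutation, designed after hypomorphic missense alleles of fish. Each genotype had 6 libraries, made from 3 replicate numbers with a bisulfite kit and an enzymatic conversion kit, and the deposited levels have 1 column per replicate number (n = 3 per genotype), so the kits cannot be told apart. No source used here gives the age or sex of the mice, the read depth or the purity of the cells. Marker genes could not check the cell type, since the values used here are of methylation and not of expression. A level is a mean over the DNA of many cells, so a loss in all cells and a complete loss in some of them cannot be told apart, and neither can a change in the mixture of cell types.

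Pax5 encodes a paired-box transcription factor that commits lymphoid progenitors to the B lineage. It activates B cell genes such as Cd79a and represses genes of other lineages, and it acts downstream of factors such as EBF1. DNMT1 restores methylation of CpG dinucleotides on the newly made strand after replication, so a weakened enzyme lets methylation be lost over cell divisions. Gene starts rich in CpGs are as a rule unmethylated, whereas the bodies of genes are mostly methylated.

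The start of Pax5 is of the CpG-rich kind. The 250 bases before the RefSeq gene start are shown, from the GRCm38.p6 promoter table (chr4:44710695-44710944, minus strand, 5′ to 3′), because a candidate region covers their first 92 bases and its levels are given next. Capitals mark CpGs.

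Pax5 upstream: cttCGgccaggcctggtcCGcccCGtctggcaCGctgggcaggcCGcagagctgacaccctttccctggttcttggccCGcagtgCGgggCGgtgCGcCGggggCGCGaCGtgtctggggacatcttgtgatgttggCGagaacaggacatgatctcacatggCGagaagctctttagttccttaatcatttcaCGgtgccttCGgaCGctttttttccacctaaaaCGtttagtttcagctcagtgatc

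These bases held 19 CpGs, of which 8 lay in the covered part. With the 50 bases after the start, the window held 23 CpGs and was 59% G and C. The median over 32817 such RefSeq windows was 7 CpGs. At least 23 CpGs were found in 21.5% of windows, and at least 1 CpG in 94.6%.

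Methylation just before the start of Pax5 was low in both genotypes, and no level covers the start itself. The region over the printed bases (chromosome 4, 44710851 to 44711124) had levels of 2.54%, 3.31% and 8.08% in the wild-type columns. The mutant columns had 1.31%, 2.62% and 1.54%. The groups overlapped, with a mean of 4.64% ± 3.0 in the wild type and 1.82% ± 0.698 in the mutant (SD, n = 3 each). A candidate region overlapped 3736 of the RefSeq start windows (11.4%), and some windows share a region. The wild-type level there was below 20% in 81.3% of the 582 windows with 23 or more CpGs. It was below 20% in 17.6% of the 3154 with fewer. Candidate regions were sought for a difference between genotypes, so these shares do not describe all gene starts. By its region, which covers 8 of the window's 23 CpGs, Pax5 was among the CpG-rich starts with a level below 20%.

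**Figure D1:**
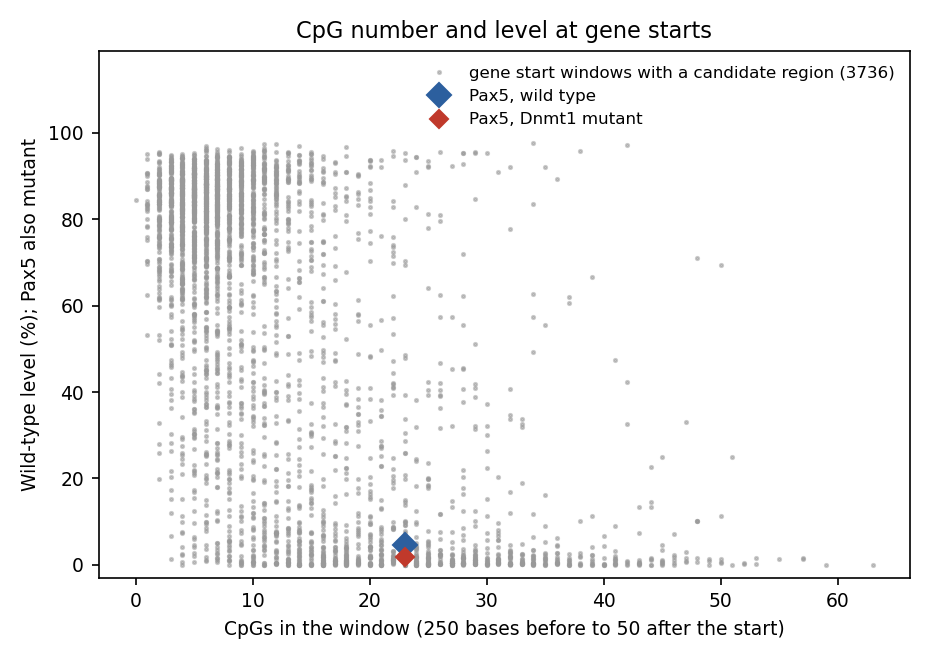
Wild-type methylation level (%, vertical axis) against the number of CpGs (horizontal axis) in 300-base windows at gene starts; each grey dot is 1 of 3736 windows overlapped by a candidate region, and the diamonds are Pax5 in wild type (blue) and mutant (red). The Pax5 window held 23 CpGs. The region that overlaps it covers 8 of them and stood at 4.64% in the wild type and 1.82% in the mutant, near the floor.

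A further 3 candidate regions lay farther before the start, within 3.67 kb of it. The farthest (44714206 to 44714364) had 13.1%, 9.08% and 11.4% in the wild type and 4.83%, 3.92% and 4.17% in the mutant, without overlap. The next (44713912 to 44714142) had 5.67%, 9.78% and 13.2% against 1.33%, 6.44% and 1.33%. Here 1 mutant column lay above the lowest wild-type column. The third (44713287 to 44713708) had 3.0%, 2.89% and 7.56% against 0%, 0% and 3.0%, which also overlapped. Over all 4 regions before the start, the mean level was 7.47% ± 2.25 in the wild type and 2.54% ± 0.688 in the mutant (SD, n = 3 each), a difference of -4.93 points.

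A stretch of lower level lay inside the gene, 6.39 to 8.46 kb past the start. It held 5 candidate regions, and 4 of them overlapped the long non-coding RNA gene 5730488B01Rik (44702800 to 44705110). The mean level was 3.06% ± 0.358 in the wild type and 1.67% ± 1.10 in the mutant (SD, n = 3 each). At 2 of the 5 the mean was higher in the mutant, by 1.12 points (44704264 to 44704349) and 0.519 points (44703577 to 44703694). In the first, the mutant columns had 0.273%, 6.18% and 0%, and the wild-type columns 1.73%, 1.09% and 0.273%. In the second, they had 0%, 1.0% and 4.67% against 1.56%, 1.78% and 0.778%. Each of these higher means came from 1 mutant column, a different one in each region, with the other mutant columns at or below the wild type's highest. The region with the smallest loss (44703309 to 44703413) had 0.667%, 4.44% and 1.22% in the mutant and 3.67%, 3.44% and 2.67% in the wild type. Together the 9 regions before and just past the start lay within 12.4 kb, and no wild-type column in them exceeded 13.2%. They covered only part of it. The longest gap, 6501 bp, followed the region nearest the start and includes the start itself, and no level is available there.

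Beyond those low regions the gene was methylated in the wild type and lower in the mutant, at candidate regions spread along its length. At 36 regions the wild-type mean was 60% or more, the boundary used here for methylated regions. Their wild-type columns averaged 79.1%, 79.7% and 80.1%, and their mutant columns 49.7%, 51.0% and 53.7%. The means were 79.7% ± 0.486 and 51.5% ± 2.04 (SD, n = 3 each), a difference of -28.2 points. The mutant thus kept 64.6% of the wild-type level. In all 36 regions every mutant column lay below every wild-type column. The same held in 97.0% of all 93775 candidate regions at 60% or more in the wild type. The differences at the 36 Pax5 regions ranged from -43.1 to -14.8 points.

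**Figure D2:**
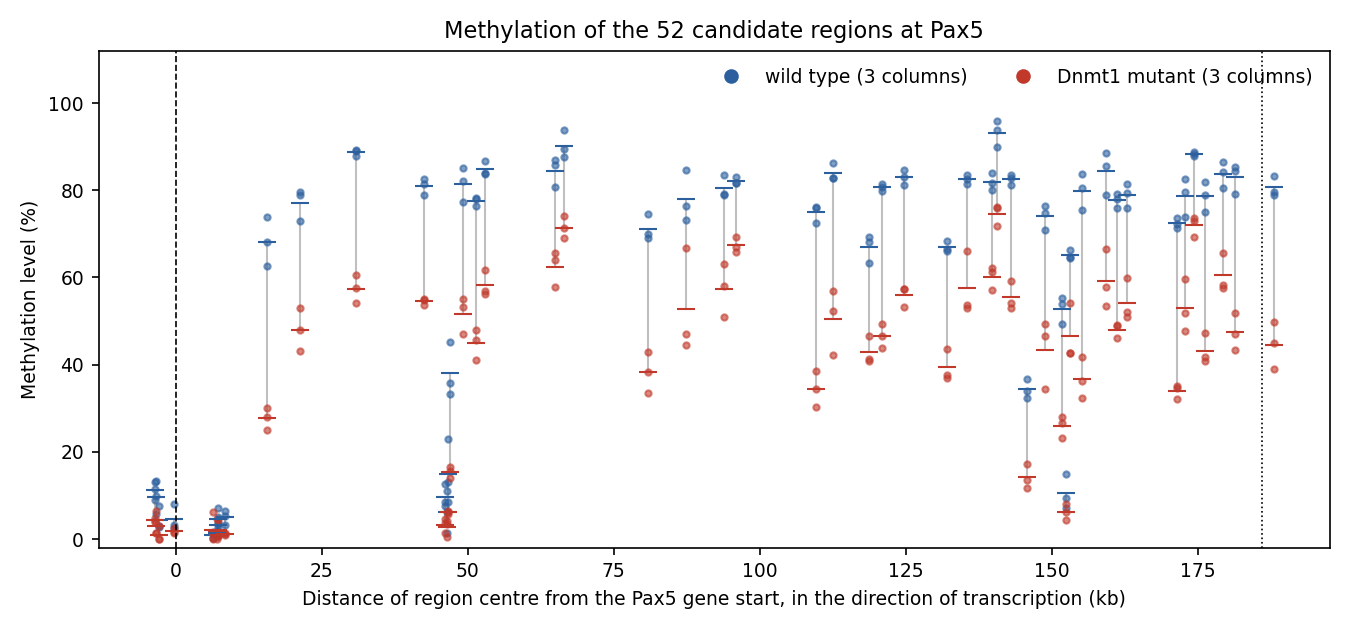
Methylation level (%) of the 52 candidate regions at Pax5 against the distance of the region centre from the gene start (kb, in the direction of transcription); dots are replicate columns, dashes are means of 3 columns, the grey line joins the genotypes, and the dashed and dotted vertical lines mark the start and the end of the gene. No wild-type column exceeds 13.2% and no mutant column 6.44% in the 9 regions before and just past the start, and all 36 methylated regions are lower in the mutant.

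The largest loss was 155 kb past the start (44555319 to 44555641). Its wild-type columns had 80.6%, 83.6% and 75.5%, and its mutant columns 36.4%, 41.7% and 32.4%, a difference of -43.1 points. The first methylated region after the low regions near the start lay 15.6 kb into the gene (44694602 to 44695651). It had 68.1%, 73.9% and 62.7% in the wild type and 25.1%, 27.9% and 30.0% in the mutant. It kept 40.5% of the wild-type level, the lowest share of the 36. A region 110 kb into the gene (44600615 to 44601585) had 72.6%, 76.2% and 76.0% against 30.3%, 38.6% and 34.3%.

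The other large losses lay toward the far end of the gene. A region 171 kb past the start (44538939 to 44539602) had 72.3%, 73.7% and 71.3% in the wild type and 35.0%, 34.6% and 32.1% in the mutant. The region just beyond the end of the gene (44521856 to 44523477) had 79.7%, 79.0% and 83.4% against 39.1%, 45.1% and 49.7%. The one closest to it inside the gene (44528482 to 44529966) had 79.1%, 85.4% and 84.4% against 43.3%, 51.9% and 47.1%. In none of these 6 regions did the genotypes overlap.

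The size of the loss had almost no correlation with the position along the gene. Across the 36 methylated regions, the correlation of the difference with the distance from the start was 0.02 (Pearson's r) and 0.01 (Spearman's rho). These regions share their 6 columns, and the values are a description across regions. The mean difference was -30.9 points over the 7 methylated regions in the 62.0 kb of the gene nearest the start. It was -26.9 points over the 10 in the next 62.0 kb and -27.8 points over the 19 in the remaining stretch and beyond. The least changed methylated region (44613919 to 44615690) fell by 14.8 points, from 82.2% ± 0.818 to 67.4% ± 1.73 (SD, n = 3 each). Regions with a lower wild-type level kept a smaller share of it, with a Pearson's r of 0.56 between the share kept and the wild-type level over the 36, measures that share the wild-type value.

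The methylated body was broken by 2 troughs of low methylation, a division made after seeing the values. The first, 46.2 to 46.6 kb past the start, held 3 regions (44664070 to 44664712). The region nearest the start of the gene (44664371 to 44664712) had 12.7%, 7.65% and 8.47% in the wild type and 3.77%, 4.70% and 1.43% in the mutant. The middle one (44664192 to 44664234) had 6.2%, 11.1% and 1.4% against 4.2%, 0.40% and 3.4%, which overlapped. The last (44664070 to 44664175) had 23.0%, 13.1% and 8.5% against 5.8%, 6.5% and 6.2%. All 3 were low in both genotypes, and in the outer ones every mutant column lay below every wild-type column. Beside them, a partly methylated region (44663490 to 44664026) had 45.2%, 35.8% and 33.3% in the wild type and 15.6%, 16.4% and 14.1% in the mutant. Only 1410 bp farther on, the level was back at 81.5% ± 3.91 in the wild type and 51.7% ± 4.19 in the mutant (SD, n = 3 each; 44660780 to 44662079). Toward the start, 2573 bp without a candidate region separated the trough from the nearest methylated region. The width of the trough on that side is therefore not known.

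The second trough, 153 kb past the start (44558072 to 44558267), had 14.9%, 7.22% and 9.33% in the wild type and 6.22%, 4.33% and 8.0% in the mutant, which overlapped. On the side toward the start it bordered a partly methylated region (44558284 to 44559527) with 49.3%, 55.2% and 53.9% in the wild type and 23.1%, 26.5% and 27.9% in the mutant. On the other side (44557059 to 44557910) the levels were 64.4%, 66.2% and 64.6% against 42.7%, 42.7% and 54.1%. Another partly methylated region (44564728 to 44565173) lay 146 kb past the start and had 33.9%, 32.3% and 36.8% against 11.7%, 17.2% and 13.6%. Over these 3 partly methylated regions (20% to 60% in the wild type) the mean fell from 41.8% ± 0.925 to 18.5% ± 1.64 (SD, n = 3 each). The mutant kept 44.2% of the wild-type level there, against 64.6% in the 36 methylated regions. Which exons, introns or enhancers the troughs overlap was not analysed here, since only gene spans were used.

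**Figure D3:**
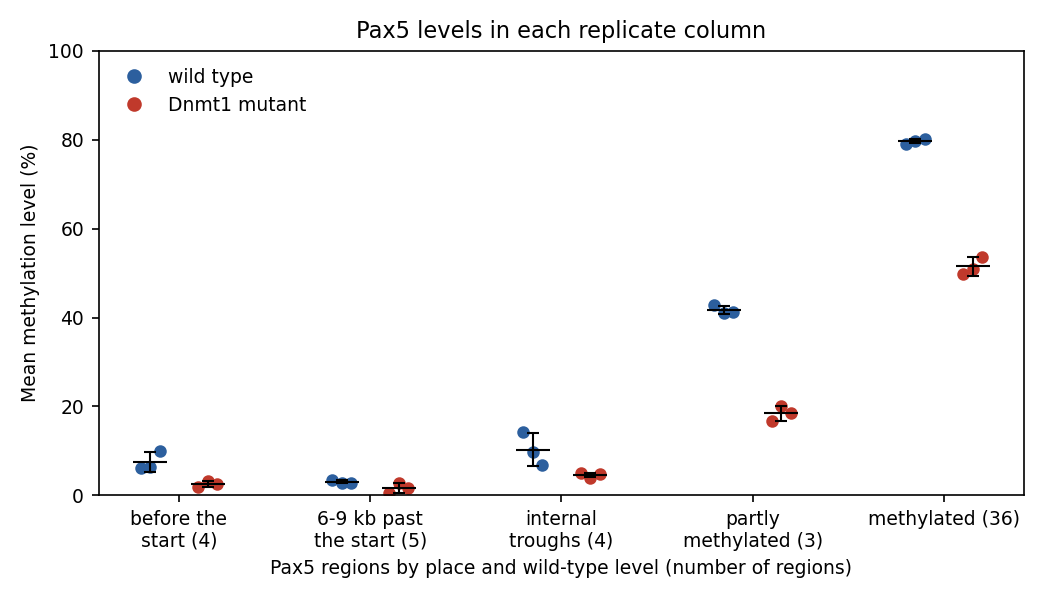
Mean methylation level (%) of the Pax5 regions in each replicate column (dots, wild type blue, mutant red), with the mean and SD of 3 columns in black, for 5 groups of regions by place and wild-type level. Before the start the wild type stands at 7.47% and the mutant at 2.54%, and the 36 methylated regions stand at 79.7% in the wild type and 51.5% in the mutant.

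The same division by wild-type level was seen over all candidate regions. Of all 93775 candidate regions at 60% or more in the wild type, the mean was 85.9% ± 0.429 in the wild type and 67.3% ± 2.46 in the mutant (SD, n = 3 each), so that 78.4% was kept. In the 7174 between 20% and 60%, 50.2% was kept, and in the 6166 below 20%, 38.0%. Regions below 20% made up 25% of the Pax5 regions and 5.76% of all. The methylated regions of Pax5 started lower in the wild type than all candidate regions of this class, at 79.7% against 85.9%. They also lost more, with a median of -27.0 against -16.9 points. That gap was not tested, since Pax5 was chosen for its many listed regions. Against the 31667 listed regions of like wild-type level, whose median was -25.9 points, the 31 of Pax5 had -29.2.

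**Figure D4:**
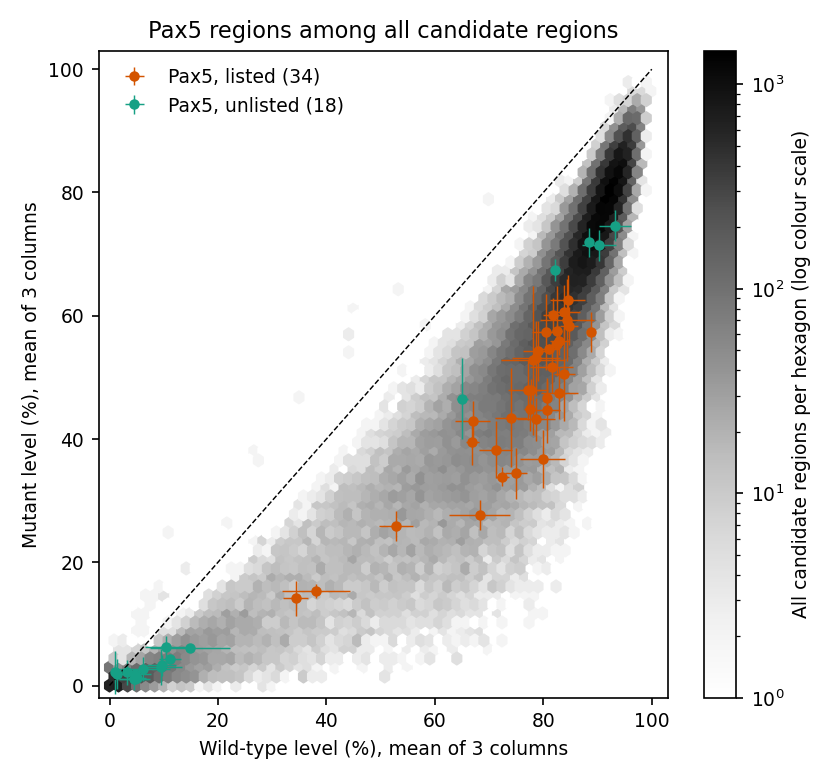
Mutant against wild-type methylation level (%, means of 3 columns) for all 107115 candidate regions (grey hexagons, darker with more regions, log colour scale) and the 52 of Pax5 (points with SD of 3 columns, orange if in the authors' hypomethylated list, green if not). The dashed line marks equal levels; all but 2 of the 52 Pax5 points lie below it.

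The authors' hypomethylated list took 34 of the 52 regions (65.4%), against 33.1% of all candidate regions, and none was in the hypermethylated list. No listed region of any gene lost less than 20 points. Just inside it was the partly methylated region at 44564728, with a difference of -20.2 points, and just outside a region 66.6 kb past the start (44643596 to 44644691), with -18.8 points. The 18 unlisted regions were the 13 below 20% in the wild type and 5 methylated ones with differences of -18.8 to -14.8 points. Averaged over the listed regions, the mutant columns had 44.5%, 46.2% and 48.4% and the wild-type columns 75.3%, 75.6% and 76.2%. Over the unlisted regions they had 19.9%, 20.4% and 21.2% against 28.7%, 27.9% and 27.7%. Of the 34 listed regions, 8 had a metilene q under 0.05 in the authors' deposited table (23.5%). Over all listed regions the share was 23.3%. The list also gives an adjusted p, which was not used here.

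In the limma fit over all candidate regions (Benjamini-Hochberg adjusted p under 0.05), 43 of the 52 were called lower and 0 higher, against 93.5% called lower and 0.0485% higher among all. Each of the 9 not called had a wild-type level below 20%. Every mutant column lay below every wild-type column in 44 of the 52, against 94.3% of all. The regions were chosen on this contrast, so these counts describe them and say nothing further.

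The listed Pax5 regions were longer and sparser in CpGs than listed regions in general. Their median length was 1017.5 bp against 721 bp, and their median density 1.45 against 1.78 CpGs per 100 bp by the authors' count. The most CpGs, 29, were in a region 125 kb past the start (44585178 to 44586942) with levels of 83.0% ± 1.73 and 56.0% ± 2.35 (SD, n = 3 each). A region with 24 CpGs (44589025 to 44590398) had 80.7% ± 0.739 and 46.7% ± 2.74. A region with 22 (44679325 to 44680267) had 88.7% ± 0.674 and 57.4% ± 3.22, and the other with 22 is the one near the far end, at 44528482. All candidate regions together covered 20.7% of the window. The longest stretch without one was 13.4 kb, and no candidate region overlapped the microRNA gene Mir5120 inside Pax5 (44607491 to 44607568).

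Replicate columns of the mutant differed most at 2 methylated regions. At 44623005 to 44623608 they had 44.6%, 47.0% and 66.7%, while the wild type had 73.2%, 76.5% and 84.5%. The third column was the highest in both genotypes there. At 44561353 to 44562382 the mutant had 46.6%, 34.4% and 49.4% and the wild type 76.4%, 70.8% and 74.8%. The SD of the mutant columns exceeded 5 points in 9 of the 52 regions and that of the wild type in 4. Over all candidate regions the mutant columns averaged 58.3%, 60.6% and 62.8%, and over the Pax5 regions 36.0%, 37.3% and 39.0%. The same mutant column was lowest in both, and the same one highest.

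Among 21900 protein-coding gene entries, Pax5 ranked 77 from the top by its candidate regions, a place shared by 7 genes, and 31 by its listed ones. Long genes have more room for regions. Per 100 kb of window, Pax5 had 26.5 candidate and 17.4 listed regions, and among the 2429 genes with a span of at least 100 kb it ranked 101 by the candidate and 28 by the listed regions. The listed regions are the measure it was chosen on. The medians over these long genes were 1.99 candidate and 0.358 listed regions. The authors' deposited table also assigned 7 hypomethylated regions beyond 5 kb to Pax5, 6 of them past its far end and 1 before its start, at distances of 6.31 to 54.2 kb.

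Pax5 was set beside 3 other lymphoid regulator genes. Bcl11b, a T cell commitment factor, had 34.7 candidate and 20.2 listed regions per 100 kb, in both more than Pax5. Its 30 methylated regions averaged 85.2%, 84.3% and 84.5% in the wild-type columns and 59.5%, 58.4% and 62.2% in the mutant columns, so 70.9% was kept. Ebf1, which encodes an activator of Pax5, had 9 regions in a span of 390.0 kb, all methylated, and kept 73.5%. Ikzf1, which encodes Ikaros, had 5 methylated regions of 7 and kept 77.6%. The median difference in methylated regions was -27.0 points at Pax5, -22.7 at Bcl11b, -18.6 at Ebf1 and -17.6 at Ikzf1. The ranges of their regions overlapped, and the differences between genes were not tested.

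**Figure D5:**
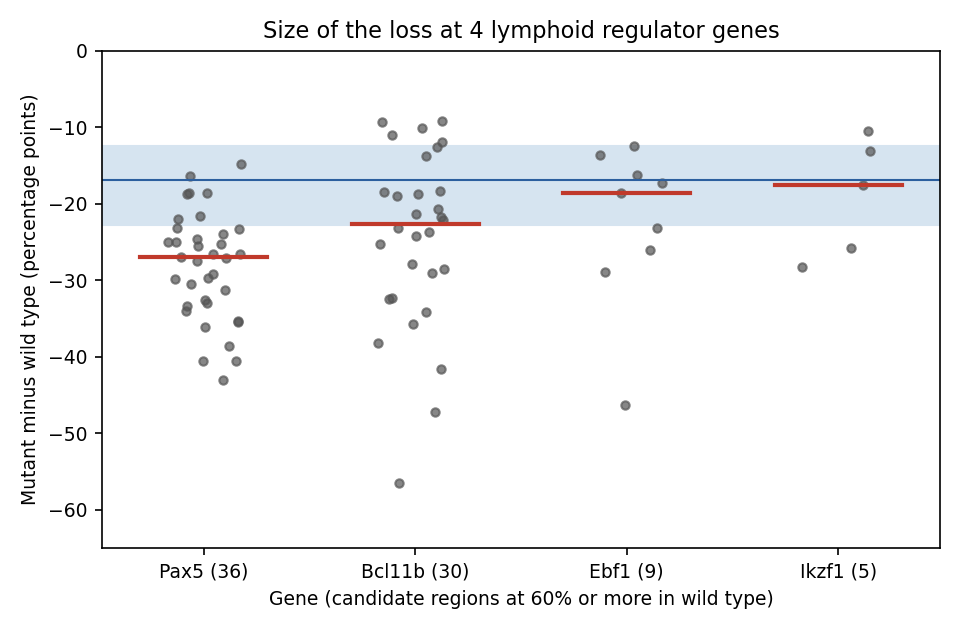
Difference in methylation level, mutant minus wild type (percentage points), of each candidate region at 60% or more in the wild type (grey dots) at Pax5 and 3 other lymphoid regulator genes, with the number of regions in brackets; red lines are medians, and the blue line and band are the median and quartiles over all 93775 such regions. The median is -27.0 points at Pax5 and -16.9 over all.

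The genes whose mean levels over the 6 columns were most like those of Pax5 were Dctn3, Arhgap9, Nr5a1, Npas1 and Oxtr. Likeness was the Euclidean distance over the 6 column means, among protein-coding genes with at least 10 candidate regions. Dctn3, a dynactin subunit gene also on chromosome 4, was nearest, at 2.48 points, with a mean difference of -21.8 points over 13 regions. Pax5 itself had 37.4% ± 1.5 and 59.2% ± 0.180 over its 52 (SD, n = 3 each). The other distances were 2.73 to 3.54 points.

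Genes that act before or after Pax5 had candidate regions called lower at about the share of all candidate regions. A smaller share of their regions was in the authors' hypomethylated list, a difference that was not tested. The listed share was 27.7% for upstream regulators, 28.7% for genes activated by PAX5 and 18.5% for genes it represses, against 33.1% of all candidate regions. Of 13 upstream regulators, 12 had a candidate region and all 12 had a region called lower by limma. The share over all genes is not given here, so nothing is read from such gene counts in this list or those below. Of the 137 regions of the upstream regulators 130 were called lower, 94.9% against 93.5% of all. The median difference was -16.9 points, against -16.6 over all candidate regions. Runx1 had 41 regions (median -16.8 points), the cytokine signalling gene Stat5b 19 (-14.6), and Spi1, which encodes PU.1, and Irf8 had 13 each (-18.9 and -19.6). Il7r, the receptor gene of a B lymphoid growth factor, had none.

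Of 17 genes activated by PAX5, 15 had a candidate region and all 15 had one called lower. Of their 108 regions 102 were called lower (94.4%), with a median of -16.0 points. Bach2, a B cell transcription factor gene, had 36 regions (median -16.6 points), Lef1 19 (-12.1), the Ikaros family gene Ikzf3 11 (-23.9) and Nedd9 9 (-11.7). Of 12 genes repressed by PAX5 in B cells, 11 had a candidate region and all 11 had one called lower. Of their 81 regions 76 were called lower (93.8%), with a median of -15.1 points. Notch1, the receptor gene of T cell commitment, had 26 regions (median -15.9 points), the adaptor gene Grap2 13 (-18.0) and the Fc receptor gene Fcgr3 10 (-6.4). Fcgr3 stood at 15.2% in the wild type and 5.7% in the mutant over its regions. No region of these 3 lists was called higher.

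The other Pax genes, regulators of embryonic development, had a lower median wild-type level than the other lists. Pax4, with 82.7% in the wild type over its 2 regions, was the highest of the 8. All 8 had a candidate region and 7 had one called lower, the exception being Pax9. Of 63 regions 39 were called lower (61.9%, against 93.5% of all) and 0 higher, and 29 had a wild-type level below 20%. Among all candidate regions, 32.7% of those below 20% in the wild type were called lower. The share was 95.5% between 20% and 60% and 97.3% at 60% or more. The authors' hypomethylated list held 26 of the 63 (41.3%), against 33.1% of all candidate regions. Their median wild-type level was 33.2%, against 87.3%, 87.1% and 87.0% in the upstream, activated and repressed lists. Pax7 had 26 regions, with means of 54.4% in the wild type and 32.6% in the mutant, and Pax2 had 17, with 45.1% and 26.0%. Pax5, with 52, had more candidate regions than any of the other 8, in counts not scaled to gene length.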

How the data were processed

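DNA methylation was sequenced for 12 libraries (6 per genotype, 100 bp paired-end, per the labels' protocols). The authors deposited methylation levels as a fraction per candidate region in 6 columns. Their region lists, per the file headers, give group means as a fraction, a difference of means (used here as a score), numbers of CpGs and q-values and p-values. The deposited tables are named for metilene, and the build is mm10, as the submitters' processing notes state. The role of other tools, the coverage and any merging of kits are not stated in these sources, so depth is unknown and no coverage minimum or counting interval was applied.

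Levels were multiplied to percent. SDs are over 3 columns per genotype. Nothing in the labels says that replicates came from separate animals. No columns were alike (smallest median absolute difference 2.44 points). Each region was fitted with limma 3.58.1 in R 4.3.3 (Benjamini-Hochberg over 107115 regions, threshold 0.05), tested on simulated data. Coordinates are printed as deposited. In 1558 of 1558 region starts inside RefSeq promoter windows, the first CpG lay 2 bases after the deposited start.

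Gene spans, neighbouring genes and sequences are RefSeq's, GRCm38.p6, the assembly of mm10; every gene of the lists matched. Named regions were those within 5 kb of the start, the 6 largest and 4 smallest losses, any higher in the mutant, the 3 with most CpGs (4 with a tie), the 2 at the list's edge and the 2 with the widest mutant spread. The troughs and level classes were chosen after seeing the values. The members and lists were chosen with earlier results of these data known. Python 3.11.15, numpy 2.4.6, pandas 2.3.3 and matplotlib 3.10.9 were used.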

Additional observations from a re-analysis of the deposited data

How the results depend on the processing

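The mean difference over the 52 Pax5 regions was -21.8 points. It was -26.5 with regions weighted by length, the regions below 20% in the wild type being shorter (median 159 against 1017.5 bp in the methylated ones). Taking the median over regions in each column first gave -31.2, whereas the median of the differences per region was -24.8. The cause was not tested. Leaving out 1 replicate gave a mean difference of -22.6 to -21.1. Over the listed regions the mean difference was -29.3 points. It was -33.6 in the 8 regions with a metilene q under 0.05, and -30.3 to -28.4 without 1 replicate. By the column medians it was -32.4, whereas the median of the differences per region was -27.2. Over the unlisted regions the mean difference was -7.59, with -12.1 weighted by length, -8.35 in the gene span alone, and -7.93 to -7.28 without 1 replicate. By the column medians it was -4.65, whereas the median of the differences per region was -5.29. These 18 regions are 13 below 20% in the wild type and 5 methylated ones. Within 5 kb of the start it was -4.93, with -2.82 within 1 kb, where 1 region is left, and -5.63 to -3.63 without 1 replicate. No region there lies in the gene span alone. When limma calls also needed 20 points of difference, 36834 of all candidate regions and 34 of the Pax5 regions were called lower. Without 1 replicate limma called 40 to 42 Pax5 regions. Of 88 alternative values, 77 stayed within the spread of the mutant columns or, for counts, within 1.5 times.

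The labels do not state whether the replicate numbers paired the samples, so the replicate block is an alternative only. Deviations of same-numbered columns correlated at 0.04, 0.0049 and 0.05, which cannot settle whether samples were paired. With the block 43 Pax5 regions were called lower, as without it, and 99903 of all.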
